A study of Mus musculus with 6 samples.

Results

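Genes of the cornified envelope and of the hair shaft were followed in RNA-seq libraries of fetal thymic stroma from wild-type (WT) and Jmjd6-/- embryos. The genes were chosen by name: every entry whose symbol starts with Sprr, Lce or Krtap, and the entries of Ivl, Lor, Flg2, Hrnr, Rptn, Crnn, Tchh, Evpl, Ppl, Tgm1, Tgm3 and Cdsn. Flg was on the list of names and had no entry. This gave 99 of the 22513 entries: 15 Sprr, 20 Lce, 52 Krtap and 12 single genes. With RANKL, 10 of the 47 members that could be tested were higher in Jmjd6-/- than in WT stroma (0.516% of all entries tested were). Of those 10, 9 lie in a single cluster on chromosome 3, which holds 39 of the 47 tested members.

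The cornified envelope is the protein shell that replaces the plasma membrane of a keratinocyte at the end of its differentiation. Transglutaminases cross-link involucrin (Ivl), loricrin (Lor), the small proline-rich proteins (Sprr) and the late cornified envelope proteins (Lce) onto a scaffold of envoplakin (Evpl) and periplakin (Ppl), and the genes of most of these precursors sit side by side in the epidermal differentiation complex. Keratin-associated proteins (Krtap) embed the keratin filaments of the hair shaft. In the thymus, some medullary thymic epithelial cells (mTECs) that have passed the Aire-expressing stage take on features of keratinocytes, including involucrin and loricrin, and mTECs as a whole express many genes of peripheral tissues.

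The libraries came from C57BL/6 thymic lobes taken at E15.5 and cultured for 4 days with 2′-deoxyguanosine (2-DG), which removes haematopoietic cells and was used in every group. Lobes were WT or germline Jmjd6-/-, so that every cell type of the lobe carries the mutation, and were then either left unstimulated (1 library per genotype) or stimulated for 4 days with RANKL (2 libraries per genotype), the cytokine that drives mTEC maturation. The series description calls the repeated libraries technical duplicates and the study calls them samples, so p-values measure the spread between libraries, which may be technical. One label field names RANKL for every sample, while titles and the stimulation field separate the unstimulated ones.

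Values are FPKM, fragments scaled by gene length and by library size, and so can be compared between genes. Jmjd6 was at 25.9 to 32.5 FPKM in the WT libraries and at 1.32 to 1.96 FPKM in the Jmjd6-/- libraries, and Aire, at 0.142 and 0.473 FPKM without RANKL, reached 67.1 to 79.7 FPKM with it, which matches the labels. The depth, estimated roughly from the steps between low values, was 15700000 to 30500000 fragments, at which 1 FPKM of a short gene rests on few fragments. The WT RANKL libraries differed more from each other (median absolute log2 difference 0.276 over 12587 entries) than the Jmjd6-/- RANKL libraries did (0.0767). Summed over 7 epithelial markers, the WT RANKL libraries held 4581 and 6466 FPKM and the Jmjd6-/- RANKL libraries 5953 and 6049 FPKM, which overlap. Keratins made up most of these sums. Of the 7 markers, 2 were higher in both Jmjd6-/- RANKL libraries than in both WT ones, an order found in 24.5% of all entries tested. The rest overlapped or were lower. RNA-seq of whole lobes cannot separate a change in the number of cells of a type from a change in RNA per cell.

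The upstream sequences of 6 members are shown because their genes carry the differences described below and stand in the same cluster. Each is the 200 bases before the gene start in RefSeq (GRCm38.p6, the assembly of the mm10 values), read 5′ to 3′ on the strand of the gene. Capitals mark the AP-1 site TGANTCA, the octamer ATGCAAAT and the TATA box TATAAA, searched on both strands, and none of the marked motifs overlap. AP-1 dimers are regulators of keratinocyte genes, octamers are bound by POU factors, and the TATA box positions RNA polymerase.
Sprr1a: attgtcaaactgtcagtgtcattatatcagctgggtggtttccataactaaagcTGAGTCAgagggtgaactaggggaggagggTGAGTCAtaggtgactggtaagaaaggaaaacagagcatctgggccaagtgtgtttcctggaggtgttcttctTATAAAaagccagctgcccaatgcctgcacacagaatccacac
Sprr1b: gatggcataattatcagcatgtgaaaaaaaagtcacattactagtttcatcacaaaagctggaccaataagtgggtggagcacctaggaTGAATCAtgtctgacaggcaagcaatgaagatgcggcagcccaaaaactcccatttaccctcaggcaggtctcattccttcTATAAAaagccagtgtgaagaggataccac
Sprr2d: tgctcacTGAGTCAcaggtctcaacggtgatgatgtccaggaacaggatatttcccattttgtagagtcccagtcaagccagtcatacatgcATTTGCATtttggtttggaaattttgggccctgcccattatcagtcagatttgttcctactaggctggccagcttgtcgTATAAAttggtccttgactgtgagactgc
Sprr2f: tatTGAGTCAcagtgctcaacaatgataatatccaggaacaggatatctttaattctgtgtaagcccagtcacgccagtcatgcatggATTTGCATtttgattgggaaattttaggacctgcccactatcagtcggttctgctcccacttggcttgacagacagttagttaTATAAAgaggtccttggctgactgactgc
Sprr2h: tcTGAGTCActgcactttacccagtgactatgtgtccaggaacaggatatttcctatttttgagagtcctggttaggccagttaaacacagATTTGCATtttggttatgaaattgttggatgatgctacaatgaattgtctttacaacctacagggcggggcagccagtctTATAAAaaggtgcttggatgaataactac
Ivl: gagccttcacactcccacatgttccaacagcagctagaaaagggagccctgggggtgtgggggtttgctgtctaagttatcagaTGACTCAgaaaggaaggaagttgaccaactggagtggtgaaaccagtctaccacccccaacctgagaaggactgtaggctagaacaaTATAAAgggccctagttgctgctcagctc

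The windows are chr3:92485882-92486081 for Sprr1a, chr3:92438780-92438979 for Sprr1b and chr3:92573736-92573935 for Ivl, all on the minus strand, and chr3:92338940-92339139 for Sprr2d, chr3:92364987-92365186 for Sprr2f and chr3:92385485-92385684 for Sprr2h on the plus strand. All 6 hold a TATA box, which starts 29 or 30 bases before the gene start in 5 of them and 43 bases before it in Sprr1a. Sprr1a holds a pair of AP-1 sites, at 146 and 116 bases, and Ivl has 1 at 116 bases. The 3 Sprr2 windows each have an AP-1 site between 193 and 198 bases and an octamer, read on the other strand, between 108 and 112 bases. Sequences were found for 89 gene symbols among the members, and 10 entries had none, Sprr2g among them.

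Over the 250 bases before the start, 9 of the 12 Sprr windows held an AP-1 site, compared with 6.75% of 32851 RefSeq windows of that length. A TATA box was present in 10 of 12 Sprr windows and in 12.4% of all windows, and the octamer in 7 of 12, all of them Sprr2 genes, and in 1.6% of all windows. Of 19 Lce windows, 4 had a TATA box and none had these AP-1 or octamer letters. Among 48 Krtap windows, 39 had a TATA box and 9 an AP-1 site. Sprr2 windows were 45.6 to 88.9% identical to each other after global alignment (median 64.1%, 28 pairs) and 44.3 to 53.3% identical to those of other Sprr genes (median 47.1%, 32 pairs). The NF-kB consensus occurred in none of the 12 Sprr windows and in 7.25% of all windows. At that share few or none of 12 windows would hold it, so its absence does not set them apart.

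The families differed widely in level. The 15 Sprr entries summed without RANKL to 24.5 FPKM in WT and 110 FPKM in Jmjd6-/- stroma, and with it to 63.4 and 123 FPKM in the WT RANKL libraries, and to 494 and 570 FPKM in the Jmjd6-/- RANKL libraries. The 20 Lce entries summed to 3.23 and 14.3 FPKM without RANKL (WT and Jmjd6-/-), to 2.19 and 4.42 FPKM in WT with RANKL, and to 13.7 and 17.4 FPKM in Jmjd6-/- with RANKL. The 12 single genes summed to 12.7 and 26.4 FPKM, 10.1 and 14.7 FPKM, and 25.4 and 27.1 FPKM in the same order. In all these families each Jmjd6-/- library stood above each WT library of the same stimulation, and for Lce and the single genes the unstimulated Jmjd6-/- library lay between the stimulated ones.

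**Figure D1:**
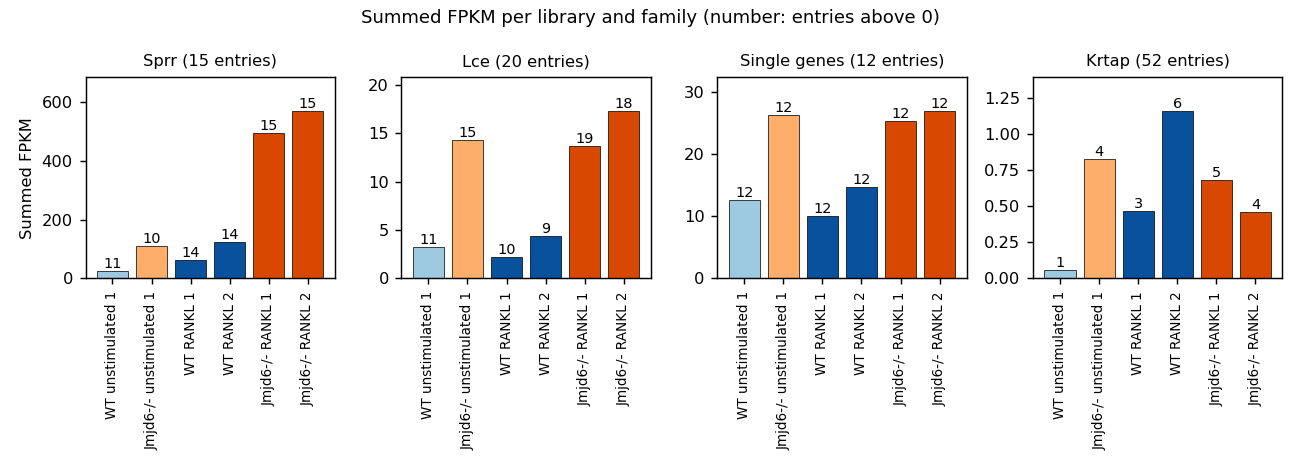
Bars give the summed FPKM of each family in each of the 6 libraries on linear axes that start at 0, with the number of entries above 0 over each bar; replicate libraries are drawn separately and no error is shown. The Sprr sums of the Jmjd6-/- RANKL libraries reach 494 and 570 FPKM, and no Krtap sum exceeds 1.16 FPKM.

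Sprr1a, a cross-linked envelope precursor that also appears in stressed epithelia, made up most of this signal. It accounted for 51.3% of the summed FPKM of all members in unstimulated WT stroma and for 65.6 to 74.9% in the other libraries. Ranked among all 22513 entries, it was 4396th in unstimulated WT, 778th in unstimulated Jmjd6-/-, 1684th and 855th in WT with RANKL, and 184th and 153rd in Jmjd6-/- with RANKL. Without Sprr1a the members summed to 19.7 FPKM in unstimulated WT and 149 and 154 FPKM in Jmjd6-/- with RANKL.

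The Krtap genes were nearly silent. Of 52 entries, 42 were listed at 0 in all 6 libraries, 10 were above 0 in at least one, and the highest single value was 0.528 FPKM (Krtap3-3 in one WT RANKL library). Their sum was 0.0612 to 1.16 FPKM per library, and 3 of them had the mean of 0.1 FPKM needed for a test. At the estimated depths, a value of 0 allows up to 3 fragments, so low transcription of these short genes was not detectable. By contrast 28 of the 47 other members reached 1 FPKM in at least one library.

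**Figure D2:**
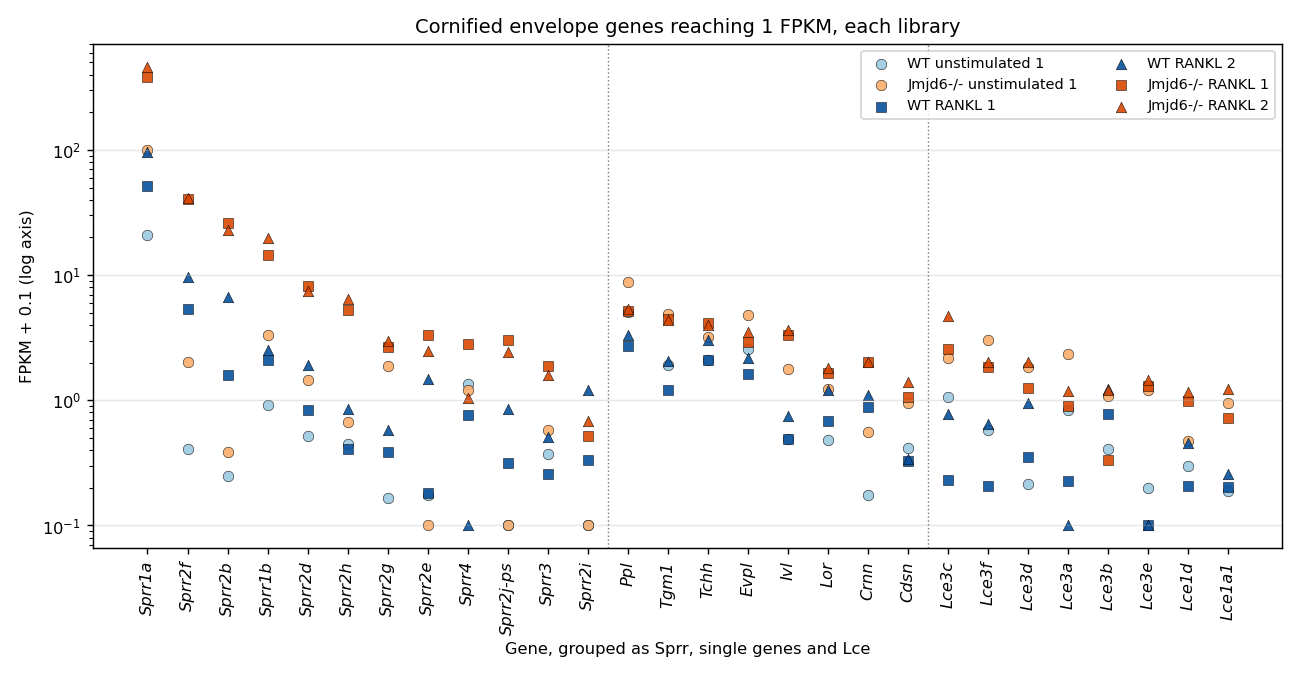
Each point is the FPKM of 1 library, with 0.1 added, on a log axis, for the 28 members that reached 1 FPKM (12 Sprr, 8 single genes and 8 Lce). The Jmjd6-/- RANKL libraries lie above both WT RANKL libraries for most of the genes, with Sprr2i and Lce3b among the exceptions.

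With RANKL, 6 of the 15 Sprr entries (Sprr1a, Sprr1b, Sprr2d, Sprr2f, Sprr2g and Sprr2h) were higher in Jmjd6-/- than in WT stroma, and the other 9 did not pass the test. Tested with limma on log2(FPKM + 0.1) over 15894 entries with a mean of at least 0.1 FPKM, and called at a Benjamini-Hochberg adjusted p under 0.05, 10 of 47 members were higher in Jmjd6-/- stroma (21.3%), where 0.516% of all entries tested were. None was lower (0 of 47, and 0 at an unadjusted p under 0.05), where 1.82% of all entries tested were. At an unadjusted p under 0.05, 34 members were higher, where 6.52% of all entries tested were higher and 12.3% lower. The median log2 difference was 1.54 over the 47 members and 0.01 over all entries. The filter can pass a gene for its Jmjd6-/- values alone, so these counts describe the tested members and not the other 52.

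Sprr1a was at 51.4 and 96.8 FPKM in the WT RANKL libraries and at 384 and 460 FPKM in the Jmjd6-/- RANKL libraries, 5.70 times the mean (log2 difference 2.58, SE 0.30, adjusted p = 0.0282). Its partner Sprr1b was at 2.01 and 2.41 FPKM in WT and 14.4 and 19.6 FPKM in Jmjd6-/-, 7.70 times the mean (log2 difference 2.88, SE 0.22, adjusted p = 0.026). For both genes the gap between the genotypes exceeded the spread within either pair.

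The Sprr2 genes encode shorter envelope proteins of the same kind. Sprr2f was at 5.24 and 9.51 FPKM in WT and 40.3 and 41.1 FPKM in Jmjd6-/- stroma with RANKL, 5.52 times the mean (log2 difference 2.51, SE 0.29, adjusted p = 0.0282). Sprr2h, at 0.306 and 0.746 FPKM in WT, was at 5.18 and 6.33 FPKM in Jmjd6-/-, a log2 difference of 3.31 (SE 0.40, adjusted p = 0.0284). Sprr2d was at 0.739 and 1.80 FPKM in WT and 8.15 and 7.31 FPKM in Jmjd6-/- (2.63, SE 0.41, adjusted p = 0.0461), and Sprr2g at 0.286 and 0.482 FPKM against 2.57 and 2.87 FPKM (2.57, SE 0.30, adjusted p = 0.0282). Thus 4 of the Sprr2 entries passed the test. Sprr2b had the second largest gain in FPKM of this group, from 1.5 and 6.58 FPKM to 26.0 and 22.8 FPKM, but its WT libraries lay far apart and it did not pass (2.90, SE 0.65, adjusted p = 0.0879).

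Sprr3 (log2 difference 2.26, adjusted p = 0.0568), Sprr2j-ps (2.38, 0.083), Sprr2e (2.47, 0.257) and Sprr4 (2.62, 0.256) also did not pass, although in each of them the lower Jmjd6-/- library exceeded the higher WT one. Sprr2i was the exception, at 0.236 and 1.11 FPKM in WT and 0.420 and 0.582 FPKM in Jmjd6-/-, and its ranges overlap. Of the 15 Sprr entries, 14 had both Jmjd6-/- RANKL libraries above both WT RANKL libraries, an order found in 24.5% of all entries tested. Over the 47 tested members this order was seen in 38 and the reverse, found in 26.2% of all entries tested, in 1. The 38 include members, Lce1l among them, that met the filter for testing through their Jmjd6-/- values alone. The entries named Sprr2a1, of which there are 2, share 92.4% of their read-length windows with near-identical copies, so how fragments were split between them is uncertain.

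Lce genes encode envelope proteins added late in cornification. Lce3e was listed at 0 in both WT RANKL libraries and was at 1.21 and 1.34 FPKM in the Jmjd6-/- RANKL libraries (adjusted p = 0.026), and Lce1l was listed at 0 in both and was at 0.585 and 0.315 FPKM (adjusted p = 0.0486). No fold is given against values of 0. The estimated numbers of fragments behind these values were 14 and 12 for Lce3e and 8 and 3 for Lce1l. Those were the 2 of 17 tested Lce entries past the test. Of the 17, 13 had both Jmjd6-/- RANKL values above both WT RANKL values, an order found in 24.5% of all entries tested. Lce1l was listed at 0 in every WT library, so it met the filter for testing through its Jmjd6-/- values alone. Lce3e, at 0.0978 FPKM in unstimulated WT stroma, also needed its Jmjd6-/- values to meet the filter.

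Most of the other Lce genes that reached 1 FPKM had higher values in Jmjd6-/- stroma without passing. Lce3c was at 0.132 and 0.683 FPKM in WT and at 2.46 and 4.64 FPKM in Jmjd6-/- (log2 difference 3.03, SE 0.63, adjusted p = 0.077). Lce3a was at 0.128 and 0 FPKM against 0.794 and 1.08 FPKM (2.76, adjusted p = 0.0521), and Lce3f, Lce3d, Lce1d and Lce1a1 had log2 differences of 2.40, 1.47, 1.79 and 2.04. Lce3b went the other way, at 0.676 and 1.14 FPKM against 0.233 and 1.12 FPKM, with overlapping ranges. Lce3c, Lce3d, Lce3e and Lce3f share 24.0 to 42.9% of their read-length windows with one another, so how fragments were split between them is uncertain.

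Of the single genes, involucrin and corneodesmosin passed. Ivl was at 0.393 and 0.654 FPKM in WT and 3.22 and 3.56 FPKM in Jmjd6-/- stroma with RANKL, 6.48 times the mean (log2 difference 2.52, SE 0.29, adjusted p = 0.028). Cdsn, the adhesive protein of the corneodesmosome, was at 0.228 and 0.240 FPKM against 0.960 and 1.31 FPKM (1.87, SE 0.29, adjusted p = 0.0433). Neither gene's groups overlap. Tgm1, the membrane-bound transglutaminase that forms the envelope, was at 1.12 and 1.97 FPKM against 4.38 and 4.27 FPKM and did not pass (1.48, SE 0.29, adjusted p = 0.0692).

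The scaffold proteins moved less. Ppl was at 2.64 and 3.23 FPKM in WT and 5.02 and 5.30 FPKM in Jmjd6-/- (log2 difference 0.80, adjusted p = 0.0866), and Evpl had a log2 difference of 0.77 (adjusted p = 0.162). Lor, the most abundant envelope protein of skin, was at 0.580 and 1.12 FPKM against 1.55 and 1.71 FPKM (0.93, adjusted p = 0.238). Tchh, an inner root sheath and hair medulla protein, had a log2 difference of 0.68 (adjusted p = 0.211), and Crnn, of the fused S100 type, one of 1.03 (adjusted p = 0.112). Tgm3, the transglutaminase of the hair follicle and upper epidermis, was the 1 member with both Jmjd6-/- values below both WT values, at 0.143 and 0.311 FPKM against 0.126 and 0.0367 FPKM (-0.85, adjusted p = 0.407).

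The number of members called depends on single libraries, as does the number called over all entries. It was 23 without the first WT RANKL library and 5 without the second Jmjd6-/- RANKL library, and those 5 (Sprr1a, Sprr1b, Sprr2f, Sprr2h and Lce3e) passed with each of the 4 RANKL libraries left out in turn. Without the filter on low values 1 member passed, and it was the only 1 of 22513 entries called higher. With 2 libraries against 2, an exact two-sided permutation test of a single gene cannot go below p = 0.333, so every call rests on the spread that limma shares across genes.

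Without RANKL, the genotypes were compared in 1 library each, with no test. Sprr1a was at 20.8 FPKM in WT and 99.5 FPKM in Jmjd6-/- stroma, Ivl at 0.392 and 1.66 FPKM, Sprr2f at 0.306 and 1.94 FPKM, and Sprr2g at 0.0670 and 1.78 FPKM. In the Lce group, Lce3d was at 0.115 and 1.76 FPKM and Lce3f at 0.482 and 2.96 FPKM. With 0.1 added, 15 of the 99 members were more than 3-fold higher in Jmjd6-/- stroma, where 0.733% of all entries were, and none was more than 3-fold lower, where 0.853% were. This count rests on low values: with 1 added in place of 0.1, 1 member was more than 3-fold higher, and with 0.01 added 24 were. Sprr2e (0.0753 and 0 FPKM) and Sprr4 (1.26 and 1.12 FPKM) were lower in Jmjd6-/-, and Sprr2i and Sprr2j-ps were listed at 0 in both. Of the 47 tested members 36 were higher and 3 lower in Jmjd6-/- stroma to any extent, where 49.5% of all entries tested were higher. The median log2 difference over these 47 was 1.03, against 0 for all entries tested.

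The members that rose with RANKL were mostly Sprr genes. In a limma fit over both genotypes (4 stimulated against 2 unstimulated libraries, genotype as a term), 10 of 47 members were higher with RANKL, or 21.3%, where 10.5% of all entries tested were. Lower were 2 of 47, where 4.11% of all entries tested were. The higher members were 9 of the 15 Sprr entries (Sprr1a, Sprr1b, Sprr2b, Sprr2d, Sprr2f, Sprr2i, Sprr2j-ps and both Sprr2a1 entries) and Crnn. Of these, Sprr2i, Sprr2j-ps and both Sprr2a1 entries were at 0 to 0.0172 FPKM without RANKL. They met the filter for testing through their RANKL values alone, so these counts describe only the tested members. The median log2 difference was 1.92 over the Sprr entries, 0.25 over the 17 tested Lce entries and -0.02 over all entries. None of the Lce entries was higher at an adjusted p under 0.05 in limma, and 1 was at an unadjusted p under 0.05, where 17.9% of all entries tested were.

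Sprr2b rose most, from 0.148 FPKM (WT) and 0.284 FPKM (Jmjd6-/-) without RANKL to 1.5 and 6.58 FPKM and to 26.0 and 22.8 FPKM (log2 difference 4.86, SE 0.67, adjusted p = 0.00492). Sprr2f rose from 0.306 and 1.94 FPKM to 5.24 and 9.51 FPKM in WT and to 40.3 and 41.1 FPKM in Jmjd6-/- (4.23, SE 0.23, adjusted p = 0.000106). Within each genotype every stimulated library exceeded the unstimulated one for both genes. The log2 difference was 1.92 for Sprr1a (SE 0.24, adjusted p = 0.00358), 1.83 for Sprr1b (SE 0.26, adjusted p = 0.00568) and 1.86 for Sprr2d (SE 0.39, adjusted p = 0.0236).

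Sprr2j-ps and Sprr2i were listed at 0 in both unstimulated libraries. Sprr2j-ps reached 0.218 and 0.758 FPKM in WT and 2.94 and 2.33 FPKM in Jmjd6-/- stroma (adjusted p = 0.0117), and Sprr2i passed at an adjusted p of 0.0194. Crnn, a cornified squamous protein of oesophagus and skin, rose from 0.0742 and 0.456 FPKM to 0.790 and 1.01 FPKM in WT and 1.93 and 1.91 FPKM in Jmjd6-/- (2.19, SE 0.25, adjusted p = 0.00228). The Sprr2a1 entries were at 0 to 0.0172 FPKM without and 0.251 to 0.957 FPKM with RANKL (adjusted p = 0.00491 and 0.00597). Because 92.4% of their read-length windows are shared with near-identical copies, these may not be separate calls.

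Ppl and Lce3a fell. Ppl went from 4.95 to 2.64 and 3.23 FPKM in WT and from 8.70 to 5.02 and 5.30 FPKM in Jmjd6-/- (log2 difference -0.74, SE 0.14, adjusted p = 0.0145), and Lce3a from 0.737 to 0.128 and 0 FPKM and from 2.24 to 0.794 and 1.08 FPKM (-1.83, SE 0.45, adjusted p = 0.0397). Ivl had a log2 difference of 0.65 (adjusted p = 0.165), Lor one of 0.71 (adjusted p = 0.159), Tgm1 one of -0.21 (adjusted p = 0.585) and Cdsn one of 0.02 (adjusted p = 0.963), none past the test. Without the unstimulated Jmjd6-/- library 4 members remained past the test as higher, and Ppl and Lce3a lost their calls with either unstimulated library or either Jmjd6-/- RANKL library left out. Crnn, Sprr2f and the Sprr2a1 entries passed with each of the 6 libraries left out in turn.

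**Figure D3:**
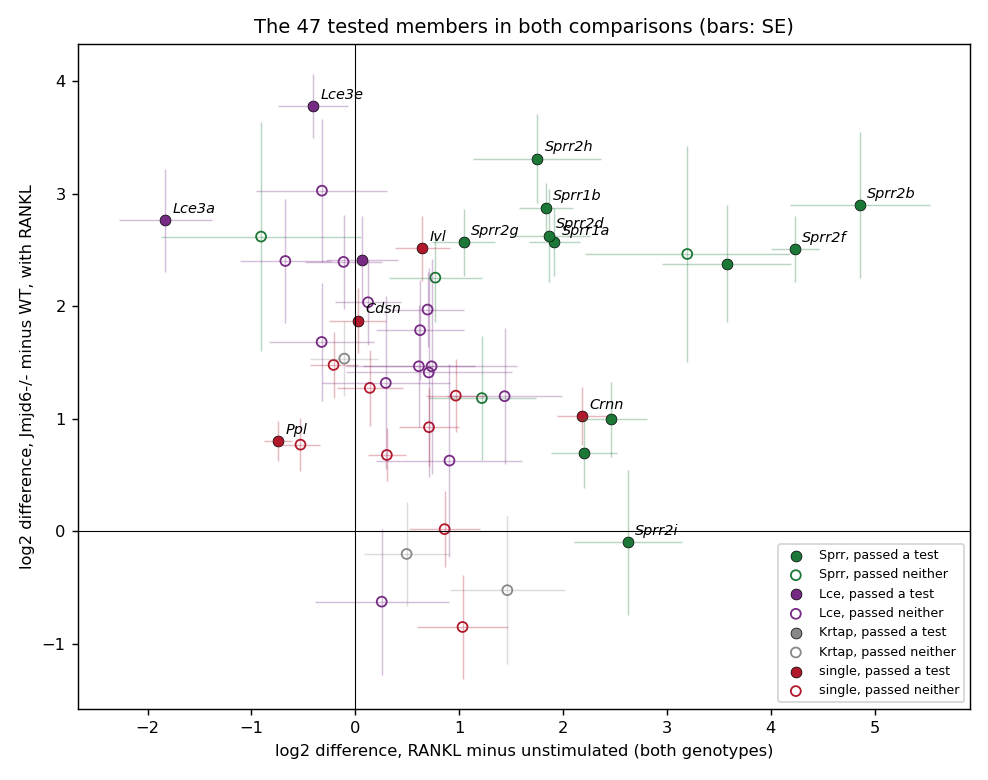
For each of the 47 tested members the horizontal axis gives the log2 difference between stimulated and unstimulated libraries over both genotypes and the vertical axis that between Jmjd6-/- and WT with RANKL; bars are SE from limma and filled points passed at least 1 of the tests. Sprr2b and Sprr2f lie far to the right, Lce3e and Sprr2h near the top, and Lce3a and Ppl to the left of 0.

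Read within each genotype, both stimulated libraries exceeded the unstimulated one in 24 of the 47 members in WT (34.6% of all entries tested) and in 30 in Jmjd6-/- stroma (40.8%). In both genotypes together this held for 19 members (25.7%), 11 of them Sprr entries and 1 an Lce entry. Both stimulated libraries were below the unstimulated one in 8 members in WT (36% of all entries tested) and in 6 in Jmjd6-/- (44.6%).

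Both comparisons use the same RANKL libraries, so their values are only given side by side. Sprr1a, Sprr1b, Sprr2d and Sprr2f passed in both, which is 40% of the calls in each. Ivl, Cdsn, Lce1l, Lce3e, Sprr2g and Sprr2h passed for genotype and not for RANKL, and Crnn, Sprr2b, Sprr2i, Sprr2j-ps and both Sprr2a1 entries the reverse. Whether the response to RANKL differs between the genotypes was tested as an interaction, which 0 of 47 members and 0 of 15894 entries passed in limma (at an unadjusted p under 0.05, 3 members, Sprr2h, Sprr1b and Sprr2j-ps, had a greater response in Jmjd6-/-, where 0.742% of all entries tested did). The largest of these was Sprr2h, whose log2 difference between genotypes was 2.73 greater with RANKL than without (adjusted p = 0.838). A range of more than 3-fold over the 6 libraries, with 0.1 added, was seen in 46 of the 99 members and in 14.3% of all entries.

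All 15 Sprr, all 20 Lce and 7 of the 12 single genes (Ivl, Lor, Flg2, Hrnr, Rptn, Crnn and Tchh) lie at chr3:92080271-93449077 (mm10), the epidermal differentiation complex. The Sprr entries occupy chr3:92215835-92500493 and the Lce entries chr3:92620085-93019060. The 10 members raised by RANKL and 9 of the 10 higher in Jmjd6-/- stroma are in this interval, and Cdsn on chromosome 17 is the other. The interval holds 39 of the 47 tested members. The Krtap entries lie in clusters on chromosomes 7, 10, 11 and 16.

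The interval holds 7 other entries, of which 5 were tested. Crct1, a cysteine-rich protein gene beside the Lce cluster, was at 2.48 and 3.64 FPKM in WT and 16.5 and 16.9 FPKM in Jmjd6-/- stroma with RANKL (log2 difference 2.44, SE 0.21, adjusted p = 0.0279), and Kprp, a proline-rich keratinocyte protein gene, was also higher (1.97, adjusted p = 0.0435). Gm4858 and Prr9 were higher with RANKL (1.86 and 1.59) and had lower values in Jmjd6-/- without passing (-1.53 and -1.05). These 4 genes were chosen with their values in view.

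The S100 genes that flank the complex encode small calcium-binding proteins. With RANKL 10 of the 11 on this list were higher, where 10.5% of all entries tested were. S100a10 and S100a11 were listed with the envelope genes instead. They did not pass for RANKL (log2 difference -0.12 and -0.05) or for genotype (0.66 and 0.50). Between genotypes 1, S100a4, was higher in Jmjd6-/- stroma, where 0.516% of all entries tested were. S100a8, of the antimicrobial protein calprotectin, rose from 0.586 FPKM in WT and 0.268 FPKM in Jmjd6-/- to 98.2 and 141 FPKM and to 58.5 and 65.5 FPKM (log2 difference 7.41, adjusted p = 1.5e-05). Its partner S100a9 rose by 2.66 and S100a3, a hair cuticle protein, by 3.43 on the log2 scale. The median log2 difference between genotypes was 0.18 over the S100 list, 2.51 over the Sprr entries and 1.79 over the tested Lce entries.

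Other genes of squamous epithelium had more calls higher in Jmjd6-/- than lower, where 0.516% of all entries tested were higher and 1.82% lower. Of 16 epidermal keratins 3 were higher, of 19 tested envelope genes outside the named families 5, of 12 adhesion genes 2, of 14 epidermal proteases and inhibitors 2, and of 16 tested barrier lipid enzymes 1. Krt6b, a keratin of activated and appendage epithelium, was at 1.28 and 4.37 FPKM in WT and 39.8 and 43.0 FPKM in Jmjd6-/- (log2 difference 4.06, SE 0.53, adjusted p = 0.034), and Krt6a at 18.6 and 36.5 FPKM against 162 and 180 FPKM (2.71, adjusted p = 0.028). Asprv1, the protease that processes filaggrin, was at 7.03 and 8.13 FPKM against 49.9 and 57.1 FPKM (2.80, SE 0.14, adjusted p = 0.0138), and Spink5, an inhibitor of epidermal kallikreins, at 4.29 and 5.25 FPKM against 20.7 and 20.5 FPKM (2.1, adjusted p = 0.026). None of these 4 genes passed for RANKL.

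Calm4, a calmodulin-like protein of the upper epidermis, had a log2 difference between genotypes of 3.01, Serpinb5 of 1.97, Scel, the envelope protein sciellin, of 1.94, the desmosomal genes Perp and Pkp1 of 1.19 and 1.27, and Elovl4, which makes very long fatty acids of barrier ceramides, of 1.42, all past the test. With RANKL, Krt79 (3.97), Krt77 (3.23), Dsg1a (2.78), Dsg1b (2.86), Alox12e (3.96), Sptlc3 (2.15), Klk7 (2.04), St14 (1.07) and Lgals7 (2.02) were higher, and none of these 9 passed for genotype. Scel (-0.60) and Elovl4 (-0.64) were lower with RANKL.

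Of 22 tested regulators of squamous differentiation none passed for genotype in limma, and 11 were higher and 0 lower at an unadjusted p under 0.05, where 6.52% of all entries tested were higher and 12.3% lower. Grhl3, a transcription factor of the epidermal barrier, was at 5.36 and 4.57 FPKM in WT and 9.03 and 9.64 FPKM in Jmjd6-/- (0.90, adjusted p = 0.053) and fell with RANKL (-0.84, adjusted p = 0.00568), as did Zfp750 (-0.48). Junb, an AP-1 subunit, rose with RANKL by 1.21 on the log2 scale (adjusted p = 0.0124), and Grhl1 by 0.55. The hair and inner root sheath keratins had 10 of 20 entries tested and split. Krt72, of the inner root sheath, was higher in Jmjd6-/- (2.22, adjusted p = 0.0282) and lower with RANKL (-1.77), and a merged entry of 5430421N21Rik, Krt81, Krt83 and Krt85 was at 2.55 and 3.03 FPKM in WT and 0.651 and 0.399 FPKM in Jmjd6-/- with RANKL (-2.23, adjusted p = 0.0406) and listed at 0 without. Of 10 tested hair follicle regulators none passed for genotype (4 higher and 0 lower at an unadjusted p under 0.05), and Padi1 rose with RANKL by 1.15.

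**Figure D4:**
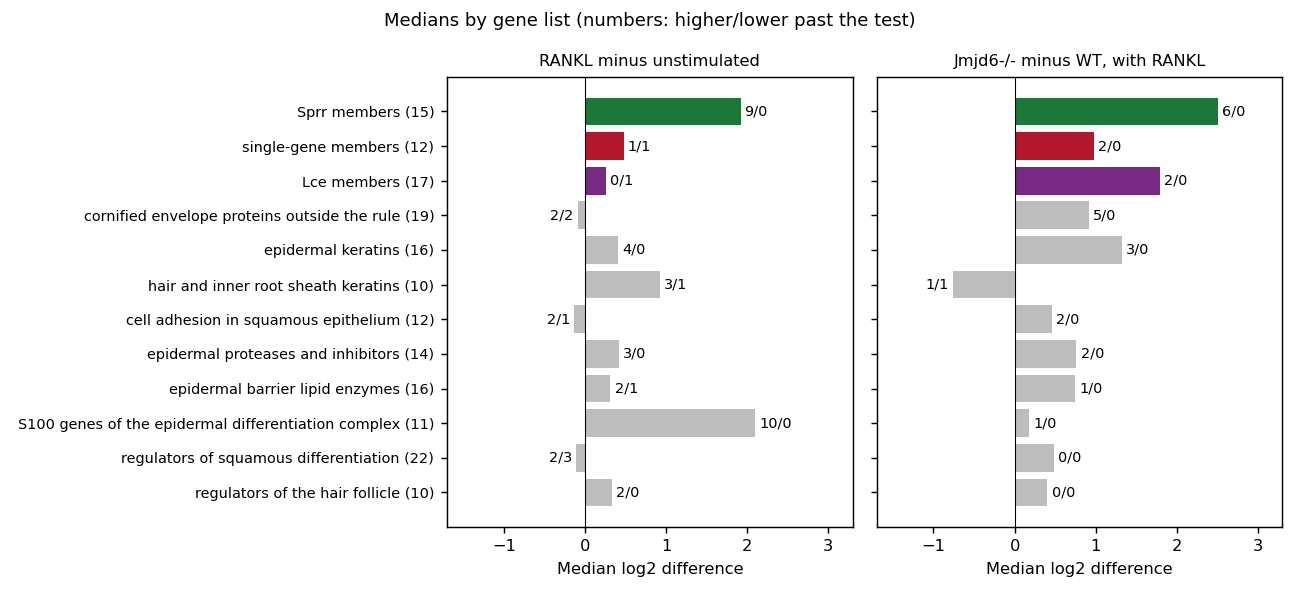
Bars give the median log2 difference of each gene group (number of entries tested in brackets) for RANKL on the left and for genotype with RANKL on the right, with the numbers of entries higher and lower past the limma test beside them. The Sprr bar is long in both panels (1.92 and 2.51), the Lce bar in the genotype panel (1.79), and the S100 bar in the RANKL panel (2.1).

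Markers of other cells were read from the same libraries. Of 9 mTEC markers 8 rose with RANKL, where 10.5% of all entries tested were higher. Among the 8 were Aire (7.65), Fezf2 (3.57) and Cd80 (3.45), while between genotypes Aire (-0.15), Fezf2 (-0.26) and Cd80 (0.46) did not pass. The 5 endothelial markers summed to 12.5 and 12.3 FPKM in WT and 4.62 and 4.10 FPKM in Jmjd6-/- with RANKL, with Pecam1 (-1.74) and Cdh5 (-1.60) past the test. The 7 mesenchymal markers summed to 697 and 635 FPKM against 407 and 393 FPKM, with Col3a1 (-1.0) and Col1a2 (-0.80) past the test. Both sums were also lower in unstimulated Jmjd6-/- than in unstimulated WT stroma, at 8.31 against 22.4 FPKM and 304 against 654 FPKM. These groups moved with genotype, opposite to the Sprr and Lce genes, and their part in those differences was not tested.

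The 8 cortical epithelial markers summed to 11130 and 12920 FPKM in WT and 13350 and 13090 FPKM in Jmjd6-/- with RANKL. The 6 T cell markers summed to 0.495 to 1.81 FPKM over the 6 libraries, and the 6 melanocyte markers to 0.541 to 3.44 FPKM. Macrophage markers summed to 147 to 230 FPKM, and parathyroid and thyroid markers to 14.4 to 71.4 FPKM, with Calca higher with RANKL (3.71). Cd3e was listed at 0 in 5 of the 6 libraries. These sums are levels of genes and not numbers of cells.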

How the data were processed

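The authors sequenced poly-A RNA in 101-base pairs, mapped the reads to mm10 with TopHat2 2.0.10 and computed FPKM per gene with Cufflinks 2.1.1, with correction for multi-mapped reads and a strand-specific library type; the deposited table holds these FPKM values for 6 libraries, with 0 columns of other samples. Groups came from the sample labels. Members and gene lists were chosen with earlier results of these data known.

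Entries with a mean of at least 0.1 FPKM were tested with limma 3.58.1 in R 4.3.3 (mean-variance trend) on log2(FPKM + 0.1), and p-values were adjusted by the Benjamini-Hochberg method over all 15894. RANKL was tested with genotype as a term, and genotype and the interaction in a model with 1 mean per group, in which a lone unstimulated library is assumed to vary like the stimulated pairs. The fits were tested on simulated data. Fold changes on this scale understate those of low genes. Named are members that reached 1 FPKM or passed a test and, from each list, up to 4 genes that passed with a mean of at least 1 FPKM and the largest log2 differences.

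Depth was estimated from low FPKM steps and is approximate: 55.8 to 63.2% of the low values lay within 0.2 of a whole fragment. Limits from it cover counting error only. Sequences came from RefSeq (GRCm38.p6), shared windows of 101 bases from GENCODE vM21, and windows were aligned with Biopython 1.88. The alternatives were added constants of 1 and 0.01, other filters, no trend, other scalings, the replicate number as a block, the RANKL libraries alone and leaving out each library. Same-numbered RANKL libraries did not deviate together (r = -0.08 over 12587 entries).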

Additional observations from a re-analysis of the deposited data

Results flagged for a closer look

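For 3 members the values moved in opposite directions with RANKL in the genotypes. Every stimulated library of one genotype lay above its unstimulated library and every one of the other genotype below it. The share of all entries with this pattern was not computed, so the count is only a description. For Lce3e the WT value without RANKL, 0.0978 FPKM, rests on about 1 fragment, and both WT RANKL libraries were listed at 0. The difference in log2 response, Jmjd6-/- minus WT, was 2.00 for Lce3c, 1.16 for Lce3e and 0.67 for Cdsn. In limma the adjusted p of each interaction was 1, so none passed. Lce3c was at 0.967 FPKM in unstimulated WT and at 2.07 FPKM in unstimulated Jmjd6-/- stroma, against 0.132 and 0.683 FPKM and 2.46 and 4.64 FPKM with RANKL, and each arm rests on 1 unstimulated library.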

How the results depend on the processing

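The counts of members past a test moved with the processing, as did those over all entries. No called difference of a member changed direction under the alternatives run. Without a filter none of the 10 members called higher in Jmjd6-/- with RANKL passed, and the 1 that did was another member. Members higher in Jmjd6-/- with RANKL (10) numbered 1 without a filter, 6 with a filter at a mean of 1 FPKM, and 5 to 23 with a library left out; members lower were 0 throughout. Members higher with RANKL (10) numbered 4 without a filter and 4 to 15 with a library left out, and members lower (2) were 1 with a constant of 0.01, with the stricter filter and without the trend, 0 without a filter, and 0 to 4 with a library left out. Among pathway list genes, those higher with RANKL (30) were 14 without a filter and 15 to 39 with a library left out, those lower (8) were 3 without a filter, 3 without the trend, 5 with 1 mean per group and 0 to 15 with a library left out. Between genotypes they were 15 higher (0 without a filter, 5 to 51 with a library left out) and 1 lower (0 with a constant of 0.01, 0 without a filter, 0 with the stricter filter, 0 to 11 with a library left out). Unstimulated members past 3-fold (15 higher, 0 lower) were 1 higher with a constant of 1, and 24 higher and 1 lower with 0.01. Members past the 3-fold range (46) were 14 with a constant of 1 and 43 to 44 with a RANKL library left out. The 1 mean per group fit, the constants and scalings for the unstimulated pair and a filter at a maximum of 0.5 FPKM were chosen after seeing the data. The unfiltered fit adds entries at or near 0 to the shared spread and to the number tested, and the cause of its lower counts was not tested.

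The labels number the RANKL libraries alike in both genotypes, but nothing ties equal numbers to a shared source. With the replicate number as a block 27 members were higher in Jmjd6-/- with RANKL, 2 had a greater response to RANKL in Jmjd6-/-, and 44 and 3 pathway list genes were higher and lower between genotypes. Over all 15894 entries tested, the same block gave 396 higher and 1081 lower between genotypes, and 27 with a greater response in Jmjd6-/-.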

Other observations

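Rptn, Hrnr and Flg2, fused S100 genes related to filaggrin, stayed below 1 FPKM in every library. Rptn was at 0.510 and 0.879 FPKM in WT and 0.626 and 0.744 FPKM in Jmjd6-/- stroma with RANKL, and its ranges overlap. Hrnr was at 0.156 and 0.247 FPKM in WT and 0.551 and 0.627 FPKM in Jmjd6-/-, and Flg2 at 0.0429 and 0.0523 FPKM against 0.219 and 0.300 FPKM. Neither passed the genotype test in limma, with adjusted p of 0.127 for Hrnr and 0.124 for Flg2.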
